A study of Mus musculus with 5 samples.

Results

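NFκB is a family of transcription factors of immune and stress signalling, and the genes examined here encode its subunits and the proteins that hold it back. The 10 genes were the subunits Nfkb1, Nfkb2, Rela, Relb and Rel, the IκB inhibitors Nfkbia, Nfkbib and Nfkbie, the kinase gene Ikbkb and the feedback inhibitor Tnfaip3. They were found by gene symbol among the 20178 transcripts that the files list, and 10 of 10 matched 1 transcript each. The values came from mRNA-seq of 5 cultures of ICR mouse cells at passage 2, with 1 library per condition. Of these, 4 were labelled as astrocyte progenitor cells of postnatal day 5, taken from the ventral midbrain (VM) or the cortex (Ctx). The VM cells were sequenced without virus, in a library titled C and in a library titled NF, and the Ctx astrocytes without virus. The remaining library came from Ctx neural precursor cells (NPCs) of embryonic day 12, also without virus. The viruses of the study were lentiviral vectors with a CMV promoter, carrying mouse Nurr1 and rat Foxa2 cDNA, or the empty vector as mock.

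The labels of the libraries titled C and NF contradict each other. The titles read as control and Nurr1 plus Foxa2, while the treatment entry of the library titled C names the Nurr1 and Foxa2 viruses and that of the library titled NF names the mock virus. The libraries are therefore called by their titles, and by the treatment entries the sign of each NF against C difference would stand for the reverse comparison of viruses. Nr4a2, the gene of Nurr1, had 81 reads without virus, 53 in the library titled C and 183 in that titled NF. Foxa2 had 68, 15 and 216 reads in the same order. This order goes with the titles, although the levels in the library titled NF were only 2.83 FPKM for Nr4a2 and 4.98 for Foxa2. Over all genes, the library titled NF was nearer than that titled C to the VM library without virus. Of tested genes, 0.322% were 2-fold higher and 0.668% lower, against 7.3% and 8.48% for the library titled C. With 1 library each, neither the reads of these 2 genes nor this nearness settles the labels. The libraries held between 20010818 and 22554835 counted reads. With 1 library per condition there was no replicate check and no test of a condition, so the 95% intervals given here are exact (Clopper-Pearson) intervals of reads, which cover counting error only and leave out variation between cultures. A bulk library also cannot tell fewer cells of a type from less RNA per cell.

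NFκB acts as dimers of its subunits. In resting cells IκB proteins bind these dimers and keep them out of the nucleus, until receptors for cytokines or microbial products switch on the IκB kinase complex, which marks IκB for destruction. The freed dimers then turn on inflammatory genes, and among them the genes of their own inhibitors. Nfkbia (IκBα), Nfkbie (IκBε) and Tnfaip3 (A20) are textbook targets of this negative feedback, and Nfkb2, Relb and Rel are also known to respond to NFκB. In glia the pathway is best known for cytokine and chemokine production by microglia and reactive astrocytes.

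Among the 10 genes, the inhibitor genes Tnfaip3, Nfkbia and Nfkbib differed most over the 5 libraries and Rela and Relb least. This ranking is of reads scaled by library totals. The spread of a gene was taken as the distance from its lowest to its highest log2 CPM (counted reads brought to a common library size) over the 5 libraries. It was 2.83 for Tnfaip3 (7.10-fold), 1.63 for Nfkbia (3.09-fold) and 1.60 for Nfkbib. The subunits followed with 1.33 for Nfkb2, 1.19 for Nfkb1 and 1.18 for Rel, then Nfkbie with 0.86 and Ikbkb with 0.65. Relb spread over 0.35 and Rela over 0.32. The rank of Nfkbib above Nfkb2 depended on the scaling. Under 3 other scalings the log2 ratio of Nfkbib in Ctx NPCs against Ctx astrocytes was 1.42 to 1.44. That of Nfkb2 was -1.03 to -1.04 there and -0.41 to -0.44 in Ctx against VM astrocytes without virus. Nfkb2 then spread slightly further than Nfkbib. Of the 13298 genes with FPKM (CPM per kilobase of transcript) above 1 in at least 1 library, 3.54% had a smaller spread than Rela and 4.65% a smaller one than Relb, against 81.8% for Tnfaip3, 64.1% for Nfkbia and 63.6% for Nfkbib. The median spread of all these genes was 1.19, so that Nfkb1, Rel and Nfkb2 lay near the middle. The wide spread of Tnfaip3 and Nfkbib came mostly from the Ctx NPCs, where Tnfaip3 was at 17.0 CPM and Nfkbib at 73.9. Over the 3 VM libraries alone, Nfkbib spread over 0.13, less than Rela with 0.20 and Relb with 0.35, and Tnfaip3 over 0.30.

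**Figure D1:**
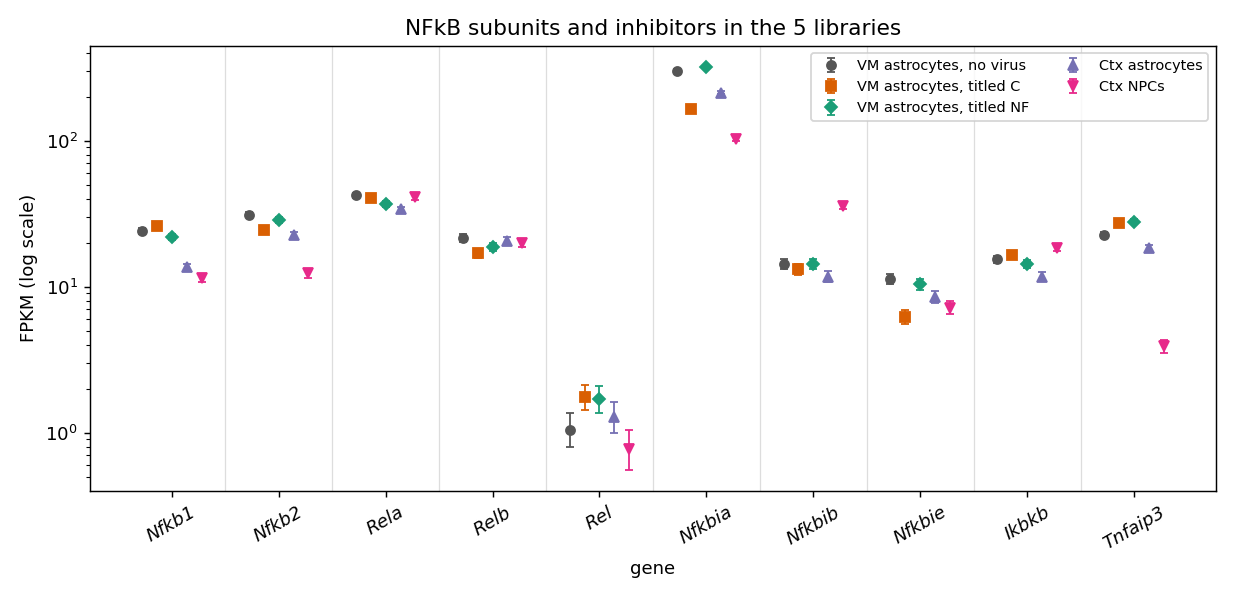
FPKM of the 10 genes (log axis) in each of the 5 libraries, 1 point per library, with bars for the exact 95% Poisson interval of the reads. Nfkbia lies above all other genes in every library, Rel lies below them, and Tnfaip3 drops to 3.91 FPKM in the Ctx NPCs.

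Rela (p65), the main transactivating subunit, was the subunit with the highest level per transcript length in each library. Its gene lies on chromosome 19 of GRCm38.p6 from 5637442 to 5648134. It had 2460 reads in VM astrocytes without virus, 2495 in the library titled C, 2047 in that titled NF, 1977 in Ctx astrocytes and 2230 in Ctx NPCs, which is 42.5, 40.7, 37.0, 33.9 and 41.0 FPKM. By library totals, the VM library without virus, the Ctx NPCs and the library titled C could not be ranked by their counting error. The library titled NF and the Ctx astrocytes lay below them. Relb, a subunit of the alternative NFκB pathway (chromosome 7, 19606217 to 19629438), had 1021, 846, 840, 976 and 883 reads across these libraries, and its FPKM stayed between 17.0 and 21.7. No pair of libraries next to each other in its ranking differed beyond the counting interval, although the highest and the lowest did. Rel (c-Rel), the subunit best known from lymphoid and myeloid cells (chromosome 11, 23736847 to 23770969), had only 58, 103, 90, 71 and 40 reads. At 0.77 to 1.76 FPKM it made up between 0.87% and 1.60% of the summed FPKM of the 5 subunits, and its ranking likewise held no pair of neighbours that differed beyond counting, while its ends did differ.

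The precursor subunits fell into a clearer order. Nfkb1 encodes p105, which is processed to p50 (chromosome 3, 135584655 to 135691969), and it had 2120 reads in VM astrocytes without virus, 2438 in the library titled C, 1857 in that titled NF, 1206 in Ctx astrocytes and 950 in Ctx NPCs. In FPKM these were 24.0, 26.1, 22.0, 13.6 and 11.5. Each of the 3 VM libraries lay well above both Ctx libraries, and each neighbour in the ranking differed beyond its counting interval. Nfkb2, the gene of p100 and p52 (chromosome 19, 46300994 to 46312400), had 1991, 1641, 1740, 1443 and 742 reads, or 31.2, 24.3, 28.6, 22.5 and 12.4 FPKM. Its order was VM without virus, NF, C, Ctx astrocytes and Ctx NPCs, again with each step beyond counting error. Both rankings are by library totals, and some steps were small. For Nfkb2 the step from C to Ctx astrocytes was 0.11 log2 (0.01 to 0.22), and 3 other scalings narrowed it. For Nfkb1 they moved the log2 ratio of NF against VM without virus from -0.12 to between -0.07 and -0.11. Added up, the 5 subunits had 120 FPKM in VM astrocytes without virus, 110 in the library titled C, 108 in that titled NF, 91.8 in Ctx astrocytes and 85.5 in Ctx NPCs. Rela held 34.3% to 37.0% of this sum in the astrocyte libraries and 47.9% in the NPCs.

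Nfkbia, the IκB gene best known for rapid induction by NFκB, was the most abundant transcript of the 10 in each library. The gene (chromosome 12, 55489409 to 55492647, minus strand) had 10210 reads in VM astrocytes without virus, 5922 in the library titled C, 10269 in that titled NF, 7256 in Ctx astrocytes and 3269 in Ctx NPCs. These were 302, 166, 319, 214 and 103 FPKM. All 5 libraries could be ranked beyond counting error, with the library titled NF highest, then VM without virus, Ctx astrocytes, the library titled C and the NPCs. Nfkbie (chromosome 17, 45555700 to 45563169) had 586, 342, 516, 446 and 352 reads in the order of libraries above, or 11.3, 6.21, 10.4, 8.52 and 7.20 FPKM. It resembled Nfkbia in having its low values in the library titled C and in the NPCs, which did not differ from each other beyond counting. Nfkbib encodes IκBβ, which is generally held to be less responsive to NFκB (chromosome 7, 28758251 to 28766644), and had 631, 614, 605, 521 and 1478 reads. Its 4 astrocyte libraries held 11.7 to 14.4 FPKM with no difference between neighbours beyond counting, while the NPCs held 35.6. Ctx astrocytes did lie below VM astrocytes without virus, with a log2 ratio of -0.29 (-0.46 to -0.12). Of the exon bases of Nfkbib, 15.2% also lie in exons of Ccer2 on the opposite strand, whose CPM was at most 0.200.

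Ikbkb (IKKβ), the catalytic subunit that phosphorylates IκB in the canonical pathway (chromosome 8, 22659205 to 22706589), had 1190 reads in VM astrocytes without virus, 1335 in the library titled C, 1058 in that titled NF, 909 in Ctx astrocytes and 1333 in Ctx NPCs. Its FPKM ran from 11.7 in Ctx astrocytes to 18.4 in the NPCs, and among the 3 VM libraries between them only the ends, C and NF, differed beyond counting. Tnfaip3, the gene of the ubiquitin-editing enzyme A20 that shuts off signalling upstream of the kinase complex (chromosome 10, 19000910 to 19015410), had 2092, 2661, 2456, 1712 and 340 reads across these libraries. In FPKM these were 22.6, 27.2, 27.8, 18.4 and 3.91. The libraries titled NF and C were highest and did not differ from each other beyond counting, and the NPCs stood far below the 4 astrocyte libraries.

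Nfkbia, Tnfaip3 and Nfkbib, the genes that passed a 2-fold difference in any comparison, are shown with the 250 bases before their start site, read from the RefSeq promoter table (GRCm38.p6) on the strand of the gene. These windows were searched on both strands for the 10-base κB consensus, the site that NFκB dimers bind, and capitals mark the matches.

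Nfkbia upstream window, chr12:55492648-55492897 (minus strand): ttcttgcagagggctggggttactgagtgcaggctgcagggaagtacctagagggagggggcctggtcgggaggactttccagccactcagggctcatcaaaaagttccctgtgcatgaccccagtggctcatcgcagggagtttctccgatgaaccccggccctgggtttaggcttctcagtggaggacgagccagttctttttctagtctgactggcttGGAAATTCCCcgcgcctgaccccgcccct
Tnfaip3 upstream window, chr10:19015411-19015660 (minus strand): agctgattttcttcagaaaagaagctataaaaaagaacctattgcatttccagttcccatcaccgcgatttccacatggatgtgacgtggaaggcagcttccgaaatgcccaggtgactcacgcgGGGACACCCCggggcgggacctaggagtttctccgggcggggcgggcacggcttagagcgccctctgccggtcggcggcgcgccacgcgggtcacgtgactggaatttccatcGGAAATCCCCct
Nfkbib upstream window, chr7:28766645-28766894 (minus strand): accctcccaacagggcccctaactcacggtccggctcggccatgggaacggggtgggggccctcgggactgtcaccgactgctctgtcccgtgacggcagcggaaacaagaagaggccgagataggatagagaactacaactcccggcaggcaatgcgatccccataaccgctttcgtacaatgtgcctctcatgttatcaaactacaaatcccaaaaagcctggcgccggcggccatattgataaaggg

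Nfkbia held 1 match from 29 to 20 bases before its start. Tnfaip3 held 2, from 125 to 116 and from 12 to 3 bases before the start site at 19015410, the end of its gene span. A window at a second Tnfaip3 start site held none, and the windows were not matched to the transcript counted. Nfkbib, the inhibitor that was higher in NPCs, held none, and neither did Rela. The table gave 10 windows for 7 of the 10 genes (Nfkb1, Relb and Ikbkb had no entry). Its start sites for Rela (5637541) and Nfkb2 (46304737, 46305695 and 46305930) lie inside the gene spans given above. The κB consensus occurred in 7 of the 10 windows and in 5 of the 7 genes, and in 3.9% of all 32851 windows of the table. The other matches are given with up to 10 bases on each side, since Rel, Nfkb2 and Nfkbie complete the genes that carried one, and capitals again mark the match or overlapping matches.

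Rel match, chr11:23771041-23771071 (minus strand): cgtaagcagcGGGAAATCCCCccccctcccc
Nfkb2 match, chr19:46304688-46304718 (plus strand): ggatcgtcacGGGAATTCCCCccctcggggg
Nfkb2 match, chr19:46304716-46304736 (plus strand): ggggccgaaaGGGGCTTTCCc
Nfkb2 match, chr19:46305449-46305478 (plus strand): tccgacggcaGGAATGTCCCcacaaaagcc
Nfkb2 match, chr19:46305695-46305724 (plus strand): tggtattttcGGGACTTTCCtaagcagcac
Nfkbie match, chr17:45555584-45555613 (plus strand): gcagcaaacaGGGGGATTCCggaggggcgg

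The matches in Rel, Nfkbie and the first Nfkb2 window lay within 106 bases of the start. A match in these letters is a description of the sequence, binding was not measured, and a missing match says only that the letters are not in the window.

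The comparison of the libraries titled NF and C is between transduced VM cultures with contradicting virus labels. With 1 library each, an effect of the viruses cannot be told apart from other differences between the cultures, such as the cell mix. Nfkbia and Nfkbie were the genes among the 10 that stood apart in this comparison. Nfkbia was higher in the library titled NF by 0.94 on the log2 scale (interval 0.90 to 0.99), or 1.92-fold, and Nfkbie by 0.74 (0.54 to 0.94), or 1.67-fold. The other 8 genes lay between -0.24 for Nfkb1 (-0.33 to -0.16) and 0.23 for Nfkb2 (0.14 to 0.33), with Rela at -0.14, Ikbkb at -0.19 and Relb, Rel, Nfkbib and Tnfaip3 at differences whose intervals include 0. Tnfaip3, at 0.03 (-0.05 to 0.11), did not share the direction of the IκB genes beyond counting. All 10 genes had FPKM > 1 in at least 1 of both libraries and 0 of them passed 2-fold in either direction, where 9.53% of the 12701 genes tested in this way were 2-fold higher and 9.73% 2-fold lower. A ratio at least as high as that of Nfkbia was found for 10.6% of tested genes, and one as high as that of Nfkbie for 14.8%. The median over the 10 genes was 0.08, against -0.02 over all tested genes.

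The VM library without virus gives a further reference. Against it, the library titled C was lower in Nfkbia by a log2 ratio of -0.87 (-0.91 to -0.82) and in Nfkbie by -0.86 (-1.06 to -0.66). In the library titled NF the same ratios were 0.08 (0.04 to 0.11) for Nfkbia and -0.12 (-0.29 to 0.06) for Nfkbie. The NF and untransduced values of both inhibitors thus lay close together, and those of the library titled C lay below both. In C against VM without virus, Nfkb2 was at -0.36 and Relb at -0.35, also lower, while Tnfaip3 was at 0.26 (0.18 to 0.35), Nfkb1 at 0.12 and Rel at 0.74 (0.27 to 1.24), the last on 103 against 58 reads. Again 0 of 10 genes passed 2-fold, against 7.3% of 12703 tested genes higher and 8.48% lower. These comparisons share libraries, so that their values are not independent of each other.

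NF against VM without virus gave the smallest differences. There 9 of the 10 genes lay between -0.21 (Relb) and 0.30 (Tnfaip3, 0.21 to 0.38), and Rel was at 0.70 (0.21 to 1.20) on 90 against 58 reads. None of the 10 genes passed 2-fold, as against 0.322% of 12428 tested genes higher and 0.668% lower. With 1.49% of tested genes as far above 0, Rel lay further out here than any of the other genes, though its interval is wide. Over the 3 VM libraries alone, the spread was 0.94 for Nfkbia, 0.86 for Nfkbie and 0.74 for Rel, and at most 0.36 for each of the other genes, with a median of 0.51 over 12791 genes. Tnfaip3, with 0.30, belonged to the steadier genes among the VM libraries.

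**Figure D2:**
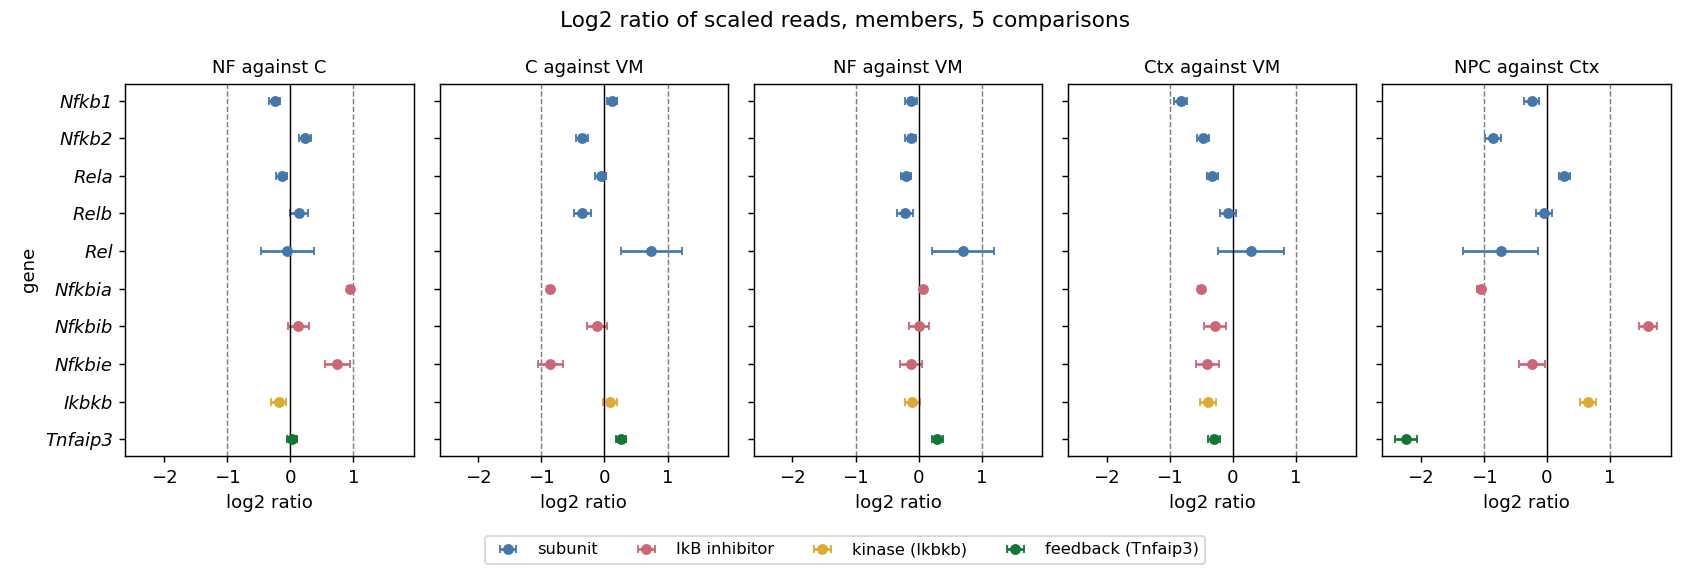
Log2 ratio of scaled reads of each of the 10 genes in the 5 comparisons, with 95% counting intervals as bars, coloured by role, and dashed lines at 2-fold. Nfkbia and Nfkbie lie towards the 2-fold lines in NF against C and in C against VM, and Nfkbia, Nfkbib and Tnfaip3 lie beyond them in NPC against Ctx.

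Markers of microglia, the resident immune cells that glial cultures can hold, had the opposite order to Nfkbia among the VM libraries. Of 20 marker genes 19 were in the files. Their summed CPM was 375 in VM astrocytes without virus, 1389 in the library titled C, 279 in that titled NF, 149 in Ctx astrocytes and 27.6 in Ctx NPCs. Siglech was at 0 in all libraries, Gpr34 also in the library titled NF and in the NPCs, and P2ry13, Trem2 and Ly86 in the NPCs. In NF against C, 14 of the 15 markers with FPKM > 1 were 2-fold lower, with a median log2 ratio of -2.66, and 0 were higher. The library titled C was therefore the one with the highest summed microglial markers and the lowest Nfkbia and Nfkbie among the VM libraries. Other cell type markers moved as well, beside 9.53% of all tested genes 2-fold higher and 9.73% lower in NF against C. In NF against C, oligodendrocyte markers were 2-fold lower for 7 of 8 genes (median -3.37, sums of 269 CPM without virus, 425 in the library titled C and 216 in that titled NF), and oligodendrocyte precursor markers for 5 of 6 (-1.70, with sums of 357, 732 and 325). Ependymal markers were 2-fold higher for 4 of 5 (1.83, with sums of 333, 62.8 and 315). Mural and fibroblast markers summed to 3367, 1774 and 3366 CPM, a sum carried by Acta2, Col1a1 and Col1a2, while Pdgfrb, Dcn, Lum and Kcnj8 were highest in the library titled C. Astrocyte markers summed to 2130, 1917 and 1837 CPM, with 1 of 10 genes 2-fold higher and 2 lower in NF against C. The part of the cell mix in the values of the 10 genes was not tested.

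**Figure D3:**
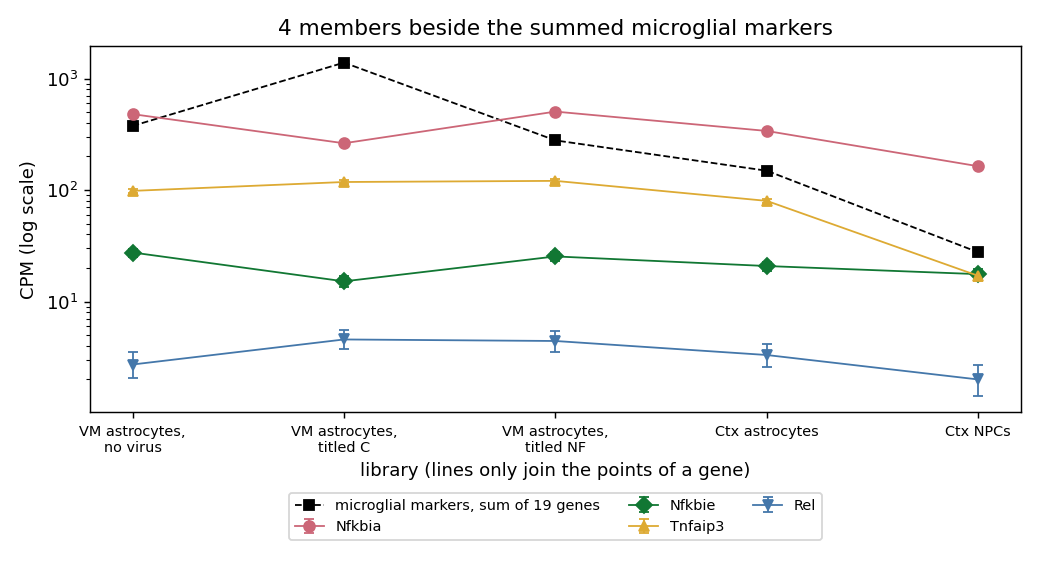
CPM (log axis) of Nfkbia, Nfkbie, Tnfaip3 and Rel with 95% Poisson intervals, and the summed CPM of 19 microglial marker genes (black squares), in the 5 libraries. The black squares peak at 1389 in the library titled C, where Nfkbia and Nfkbie are lowest of the VM libraries, and Tnfaip3 is close to its value in the library titled NF.

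Ctx astrocytes, compared with VM astrocytes without virus, had lower values for 9 of the 10 genes. Nfkb1 differed most, with a log2 ratio of -0.82 (-0.93 to -0.72), a 1.77-fold lower value. Nfkbia was at -0.50 (-0.55 to -0.46), Nfkb2 at -0.47, and Nfkbie, Ikbkb, Rela, Tnfaip3 and Nfkbib lay between -0.40 and -0.29, each with an interval below 0. For Relb (-0.07) and Rel (0.28) the interval included 0. No gene of the 10 passed 2-fold, against 4.49% of 12553 tested genes higher and 9.89% lower. The median of the 10 genes was -0.36, that of all tested genes -0.05. Microglial markers (149 against 375 CPM) and mural and fibroblast markers (1466 against 3367 CPM) were also lower in Ctx astrocytes, and astrocyte markers were higher (4623 against 2130 CPM). Their part in these values was not tested.

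Ctx NPCs, compared with Ctx astrocytes, differed most in Tnfaip3, Nfkbib and Nfkbia, and less in the other 7 genes. Tnfaip3 was lower by a log2 ratio of -2.23 (-2.41 to -2.06), a 4.70-fold lower value, and Nfkbia by -1.05 (-1.11 to -0.99), 2.07-fold lower. Nfkbib went the other way and was higher by 1.60 (1.46 to 1.75), or 3.04-fold. These 3 genes passed 2-fold, 1 higher and 2 lower, where 20.1% of 12623 tested genes were 2-fold higher and 17.9% lower, so that the share among the 10 genes was near that of all genes. A value as far below 0 as that of Tnfaip3 was found for 7.80% of tested genes, as far below as that of Nfkbia for 17.3%, and as far above as that of Nfkbib for 9.91%. Among the subunits, Nfkb2 was at -0.86 (-0.99 to -0.73), Rel at -0.72 (-1.33 to -0.15), Nfkb1 at -0.24, Rela at 0.27 (0.18 to 0.36) and Relb at -0.05, with 0 inside its interval. Ikbkb was higher by 0.65 (0.53 to 0.77) and Nfkbie was at -0.24 (-0.45 to -0.04). The scaling matters in this comparison. With library totals the median of all tested genes was 0.19, and 3 other scalings lowered it by 0.17 to 0.18, which put Nfkb2 past 2-fold (-1.03 to -1.04) and Rela at 0.09 to 0.11. The library labelled as NPCs held markers that its label does not name. Oligodendrocyte markers summed to 7756 CPM against 311 in Ctx astrocytes, oligodendrocyte precursor markers to 3562 against 479, astrocyte markers to 11367 against 4623 and neuron markers to 1080 against 441, beside progenitor markers at 6309 against 9094. The lower progenitor sum came from Vim (3443 against 7704 CPM), and 7 of the 10 progenitor markers were higher in the NPC library, among them Fabp7 (1466 against 284 CPM), Hes5 (52.5 against 0.93) and Sox2 (497 against 335). Microglial markers were at 27.6 against 149 CPM. Their part in the values of Tnfaip3, Nfkbia and Nfkbib was not tested.

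Ratios of 2 transcripts within a library are free of the scaling between libraries. Nfkbia had 7.12 FPKM per FPKM of Rela in VM astrocytes without virus (6.82 to 7.45), 4.07 in the library titled C (3.89 to 4.27), 8.61 in that titled NF (8.21 to 9.03), 6.30 in Ctx astrocytes (5.99 to 6.62) and 2.52 in Ctx NPCs (2.38 to 2.66). No pair of these counting intervals overlapped. Nfkbie per Rela had its low values in the same libraries, 0.153 in that titled C and 0.176 in the NPCs, against 0.251 to 0.281 in the other libraries. Nfkbib per Rela lay between 0.323 and 0.388 in the astrocyte libraries and was 0.870 (0.814 to 0.930) in the NPCs. Nfkbia made up 89.5% to 92.8% of the summed IκB FPKM of the 3 IκB genes in the astrocyte libraries and 70.6% in the NPCs, where Nfkbib made up 24.4%. Taken per summed FPKM of the 5 subunits, the IκB sum was 2.72 in VM astrocytes without virus, 1.69 in the library titled C, 3.18 in that titled NF, 2.55 in Ctx astrocytes and 1.71 in Ctx NPCs. The library titled C and the NPCs thus had like totals of IκB per subunit with a different mix, since Nfkbia exceeded Nfkbib 12.6-fold in the first and 2.89-fold in the second. Tnfaip3 per Ikbkb was 1.46, 1.66, 1.93 and 1.57 in the astrocyte libraries, in the order used above, and 0.212 (0.188 to 0.239) in the NPCs.

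**Figure D4:**
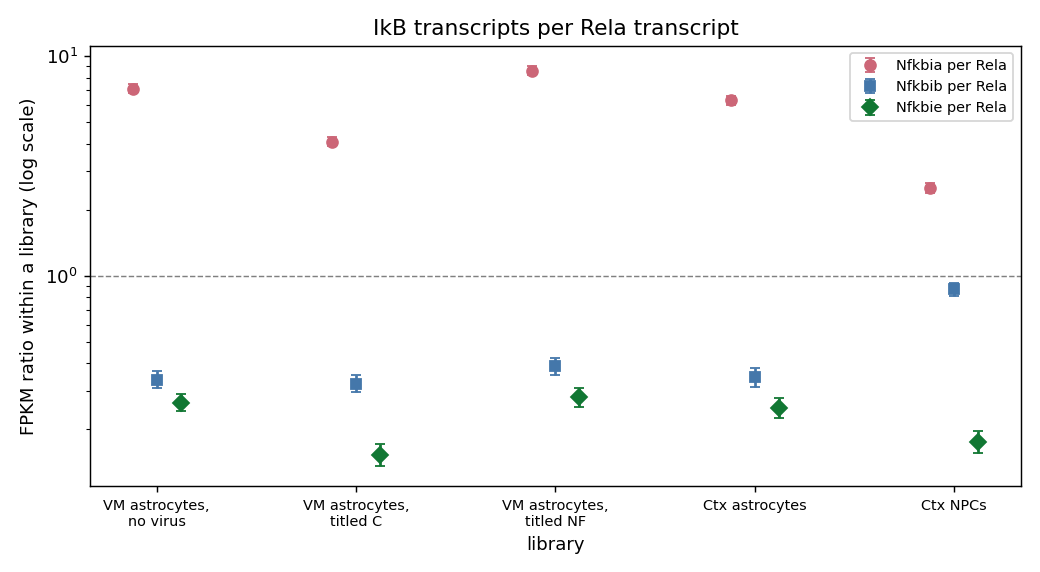
FPKM of Nfkbia, Nfkbib and Nfkbie divided by the FPKM of Rela in the same library (log axis), with 95% counting intervals as bars and a dashed line at 1. Nfkbia per Rela runs from 2.52 in Ctx NPCs to 8.61 in the library titled NF, and Nfkbib per Rela is highest in the NPCs at 0.870.

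The other genes of the pathway were taken as 83 genes in 4 lists. Of these, 83 had FPKM > 1 in at least 1 library of NF against C, where 5 were 2-fold higher and 20 lower, with a median of -0.28, beside 9.53% of all tested genes higher and 9.73% lower. In C against VM without virus 15 of 83 were 2-fold higher and 5 lower, with a median of 0.17, beside 7.3% and 8.48% of all tested genes. In NF against VM without virus 0 of 81 were higher and 5 lower, beside 0.322% and 0.668%. Their ratios in NF against C ran from -3.57 for Tnf to 3.23 for Ccl20, and those of the 10 genes from -0.24 for Nfkb1 to 0.94 for Nfkbia.

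Of the 23 receptors and adaptors, 6 were 2-fold lower and 0 higher in the library titled NF than in that titled C. Of all tested genes, 9.73% were lower and 9.53% higher. Tnfrsf11a (RANK) had 377 reads in the library titled C, 60 in that titled NF and 71 without virus, a log2 ratio of -2.49 in NF against C. Tlr2, a receptor for bacterial lipoproteins, had 4032, 690 and 1042 reads in the same order (-2.40), and Tlr4, the lipopolysaccharide receptor, 993, 196 and 219 (-2.19). These receptors were named for their size in NF against C, and the microglial markers were also highest in the library titled C. In Ctx NPCs against Ctx astrocytes, 8 of 22 receptors and adaptors were 2-fold lower and 0 higher, beside 17.9% of all tested genes lower and 20.1% higher.

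Among the 18 kinases and ubiquitin factors that act around Ikbkb, 1 was 2-fold higher and 1 lower in NF against C, no more than the 9.53% and 9.73% of all tested genes, and the median was -0.01. The lower one was Ikbke, an IκB kinase relative of interferon signalling, with 1917 reads in the library titled C, 618 in that titled NF and 779 without virus (-1.48). The higher one was Birc2, a ubiquitin ligase of the TNF receptor complex, with 906, 1640 and 1596 reads (interval 0.89 to 1.12). The 13 other IκB-like and feedback genes had 1 higher and 2 lower, beside 9.53% and 9.73% of all tested genes, with a median of -0.30. Cyld, a deubiquitinase that restrains NFκB signalling, was the higher one, with 1391 reads in the library titled C, 2791 in that titled NF and 2164 without virus (1.15). Irak3, an inhibitor of Toll-like receptor signalling, had 1103, 209 and 256 reads (-2.25), and Tnip3, an A20-binding protein, 165, 15 and 34 (-3.27). Cyld, Irak3 and Tnip3 were named for their size in NF against C, so a split among them says nothing about the negative regulators as a group. Nfkbia and Nfkbie were higher in the library titled NF, and Nfkbib and Tnfaip3 were within counting error. Ikbke, Irak3 and Tnip3 had the same order as the summed microglial markers among the VM libraries. Birc2 and Cyld were lowest in the library titled C. The part of the cell mix in these values was not tested.

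The 29 target genes, taken as genes that NFκB is known to induce, went in both directions. In NF against C 3 were 2-fold higher and 11 lower, with a median of -0.70, beside 9.53% of all tested genes higher and 9.73% lower. Tnf had 401 reads in the library titled C, 30 in that titled NF and 65 without virus (-3.57), the chemokine gene Ccl4 had 2048, 180 and 418 (-3.36), and Bcl2a1b, a survival gene whose near-identical copies make its count uncertain, 2410, 331 and 567 (-2.71). The chemokine gene Ccl20 had 30, 257 and 549 reads (3.23), the stress gene Gadd45b 986, 5336 and 3434 (2.58) and Cxcl10, a chemokine also induced by interferon, 1054, 2217 and 3789 (1.22). Each was named for its size in NF against C. Tnf, Ccl4 and Bcl2a1b had the same order as the summed microglial markers among the VM libraries. Ccl20, Gadd45b and Cxcl10 were lowest in the library titled C. The part of the cell mix in these values was not tested. In Ctx against VM astrocytes without virus, 19 of 29 target genes were 2-fold lower and 1 higher, beside 9.89% of all tested genes lower and 4.49% higher. In Ctx NPCs against Ctx astrocytes, 22 of 26 were lower and 1 higher, beside 17.9% and 20.1%. The median of the targets in the last comparison was -2.82, where Tnfaip3 was at -2.23, Nfkbia at -1.05 and Rela at 0.27.

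**Figure D5:**
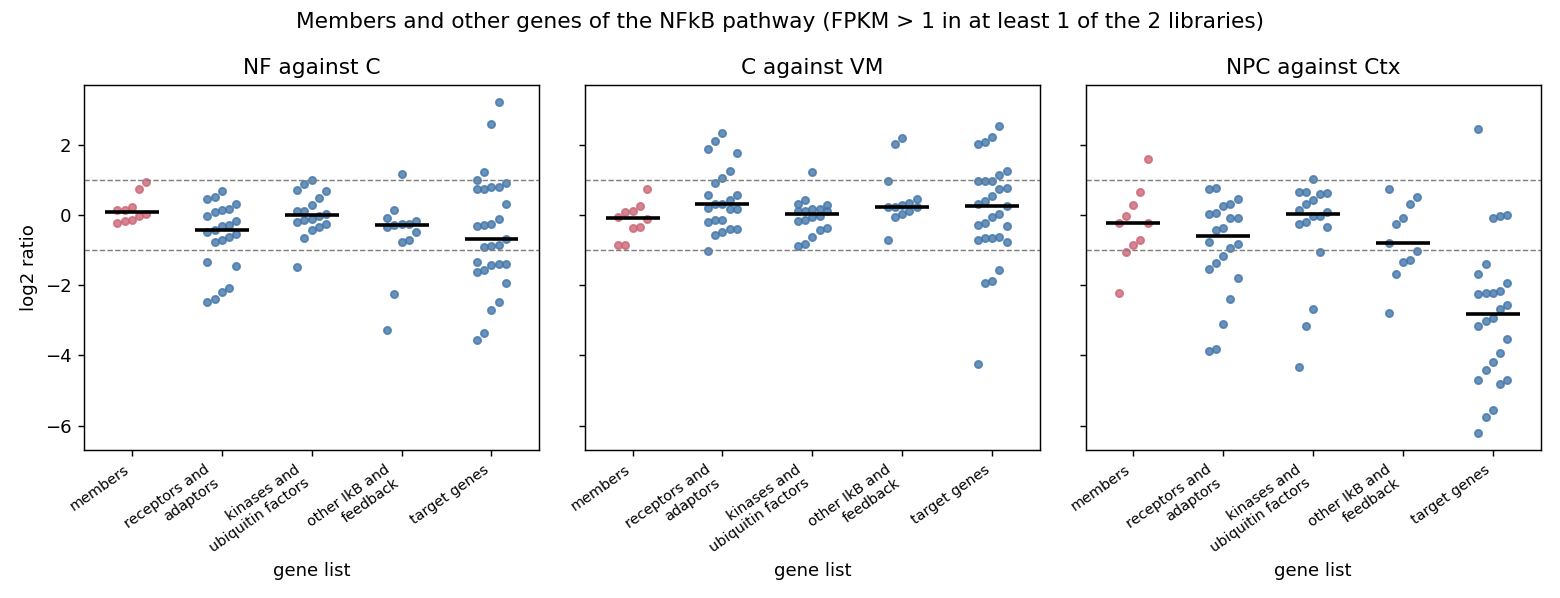
Log2 ratio of the 10 genes (red) and of the other genes of the pathway (blue) in 3 comparisons, 1 point per gene with FPKM > 1 in at least 1 of the compared libraries, with black bars for medians and dashed lines at 2-fold. The 10 genes stay within 2-fold in NF against C and C against VM, while the target genes run from -3.57 to 3.23 in NF against C and have a median of -2.82 in NPC against Ctx.

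The genes most like the 3 inhibitors with the widest spread were sought by the root mean square distance of log2 CPM over the 5 libraries, each gene centred on its own mean, among 13298 genes. Tnfaip3 was nearest to Axl, at 0.07 log2, Trim6 at 0.09 and Slc8b1 at 0.10. Axl had 15207 reads in VM astrocytes without virus, 17663 in the library titled C, 15222 in that titled NF, 11664 in Ctx astrocytes and 2340 in Ctx NPCs. Nfkbia was nearest to Nbl1, Pmaip1 and Csrp2, at 0.09, 0.10 and 0.10 log2, and Nfkbib to Msmo1, Epc1 and Zfp157, at 0.04, 0.06 and 0.07. Within 0.25 log2 there were 63 genes for Tnfaip3, 195 for Nfkbia and 561 for Nfkbib, so that patterns like these were not rare over 5 libraries. The likeness is a description of 5 values and holds no p-value.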

How the data were processed

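mRNA-seq was available for 5 cultures, 1 library per condition. Per the study's methods, bases below a quality score of 20 were trimmed, STAR was used for mapping and HTSeq for counting on RefSeq exons of Release 105. The study's methods name GRCm38/mm10 and the submitters' processing notes name mm9, beside bcl2fastq 1.8.4 and DESeq. The deposited tables hold no coordinates, and those given here are of GRCm38.p6. The read counts were deposited as raw whole numbers per transcript. The authors' FPKM divides each count by transcript length and library total, and FPKM recomputed from the deposited counts differed by at most 4.09e-05 of the value. Symbols were matched through RefSeq accessions for 19997 of 20178 transcripts. Strandedness of the counting is not given in the sources used here.

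Log2 ratios of 5 comparisons were computed here from counts divided by the library total, after adding 0.5 reads adjusted to the size of each library. Calls past 2-fold required FPKM > 1 in 1 or both of the libraries compared. A count of 3 reads, a CPM of 0.133 to 0.150, was taken as the floor. Intervals are exact (Clopper-Pearson for ratios, Poisson for counts). Samples were grouped by title. Pathway genes were named when they were among the 3 largest rises or 3 largest falls of their list in NF against C, past 2-fold. The genes and lists were chosen with earlier results of these data known. Calculations were tested on simulated counts. Alternatives were cutoffs of 1.5-fold and 2.6-fold, a pseudocount of 5 or none, 3 further filters by expression level, and scaling by upper quartiles, by TMM (edgeR 4.0.16 in R 4.3.3) or by size factors (DESeq2 1.42.0). The remaining steps ran in Python 3.11.15 with scipy 1.17.1 and pandas 2.3.3.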

Additional observations from a re-analysis of the deposited data

How the results depend on the processing

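At a 1.5-fold cutoff in place of 2-fold, 2 of the 10 genes were higher in NF against C (Nfkbia and Nfkbie), 1 higher (Rel) and 2 lower (Nfkbia and Nfkbie) in C against VM without virus, 1 higher (Rel) in NF against VM without virus, 1 lower (Nfkb1) in Ctx against VM, and 2 higher (Nfkbib and Ikbkb) and 4 lower (Nfkb2, Rel, Nfkbia and Tnfaip3) in Ctx NPCs against Ctx astrocytes. At 2.6-fold, 1 was lower (Tnfaip3) and 1 higher (Nfkbib) in the last comparison. More genes pass a lower cutoff by construction. The shares of all tested genes at 1.5-fold and 2.6-fold were not computed, so these counts cannot be set against a background. Of 250 recomputed log2 ratios of single genes, 0 turned their sign, 223 stayed inside the counting interval and 27 did not. The 40 recomputed medians stayed between the 2nd lowest and the 2nd highest ratio of the 10 genes in the main setting. That range is wide and is not a counting interval, so this says little about their stability. The 3 scalings put Nfkb2 past 2-fold in Ctx NPCs against Ctx astrocytes, which made 3 lower genes in place of 2. No paired analysis was possible because each condition has 1 library, and for the same reason no library could be left out. Rel, with 40 to 103 reads per library, is the gene that depth limits most.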
